A study of Mus musculus with 6 samples.

Results

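Inflammatory CC chemokines are small secreted proteins that draw monocytes, macrophages, granulocytes and lymphocytes into injured tissue. Described here are 7 of these ligands (Ccl2, Ccl3, Ccl4, Ccl5, Ccl7, Ccl8 and Ccl11) and 2 of their receptors (Ccr1 and Ccr2), in mouse colon with and without a knockout of Islr. The 9 genes were taken by name, with earlier results of these data known, and all 9 had a probe, among 23462 named genes on the array. In the knockout colons Ccl3 and Ccl4 were 5.18-fold to 5.62-fold lower than in the controls. Ccl5 differed by 0.01 on the log2 scale, with a 95% interval of -0.57 to 0.59. Of the other genes, Ccl2, Ccl7, Ccl8, Ccr1 and Ccr2 had lower means in the knockouts but did not pass the test, and Ccl11 could not be tested.

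The study used whole-genome Agilent arrays on total RNA of colon from 6 male mice, 3 labelled control and 3 labelled Islr knockout, with 1 array per mouse. By the source label, all 6 mice drank 3.5% dextran sulfate sodium (DSS), which damages the colon epithelium, for 5 days and recovered for 1 day. The treatment field of the same labels gives no treatment, so the course is as the source label has it; it is the same for both genotypes, and no other treatment is compared. How Islr was disrupted, in which cells, and the mice's strain and age are not given in the sources used here; the replicate numbers only name the mice.

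CC chemokines carry a pair of adjacent cysteines and act through receptors coupled to inhibitory G proteins, which steer moving leukocytes up a gradient of ligand. Ccl3 and Ccl5 are ligands of Ccr1; Ccl2 and Ccl7 act on Ccr2, which brings monocytes out of the bone marrow, and Ccl11 acts on Ccr3 of eosinophils. In the inflamed gut, macrophages, fibroblasts, endothelium and lymphocytes are known sources of these ligands.

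The ligand genes lie in a pair of clusters on mouse chromosome 11: Ccl2, Ccl7, Ccl11, Ccl12, Ccl8 and Ccl1 in one, and Ccl5, Ccl9, Ccl6, Ccl3 and Ccl4 in the other. Ccr1 and Ccr2 lie on chromosome 9 in a run with Ccr3. The annotated spans of Ccl3 and Ccl4 overlap, and the strand and place of their probes were not checked here. Promoter sequence is shown for a ligand that fell (Ccl3), a ligand with a smaller difference (Ccl8) and a receptor (Ccr1). Each line holds the 250 bases before the RefSeq start in GRCm38.p6, 5′ to 3′ on the gene's strand, at chr11:83649379-83649628 (minus strand) for Ccl3, chr11:82114935-82115184 (plus strand) for Ccl8 and chr9:123968693-123968942 (minus strand) for Ccr1. Capitals mark matches of TATAA, the core of a TATA box, or GAGGAA, a sequence that PU.1 binds, on either strand. No match of TATAA overlaps a match of GAGGAA.
Ccl3: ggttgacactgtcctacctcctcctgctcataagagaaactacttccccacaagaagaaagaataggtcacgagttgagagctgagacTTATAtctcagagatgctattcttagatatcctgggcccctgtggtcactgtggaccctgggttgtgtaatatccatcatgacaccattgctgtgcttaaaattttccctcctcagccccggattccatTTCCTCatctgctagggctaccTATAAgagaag
Ccl8: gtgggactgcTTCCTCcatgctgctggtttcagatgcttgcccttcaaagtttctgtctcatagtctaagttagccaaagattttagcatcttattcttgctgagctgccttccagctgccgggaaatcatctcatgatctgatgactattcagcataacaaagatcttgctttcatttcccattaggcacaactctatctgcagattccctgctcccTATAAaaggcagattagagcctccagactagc
Ccr1: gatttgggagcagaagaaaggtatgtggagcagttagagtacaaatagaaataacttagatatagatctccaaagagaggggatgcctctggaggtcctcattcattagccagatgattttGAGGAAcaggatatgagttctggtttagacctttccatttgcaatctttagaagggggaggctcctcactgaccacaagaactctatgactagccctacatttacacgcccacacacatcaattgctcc
Counted from the start site, with -1 the base just before it, Ccl8 held TATAA at -32 to -28. Ccl3 held it at -11 to -7, and on the opposite strand at -162 to -158. GAGGAA lay on the opposite strand at -33 to -28 in Ccl3 and at -240 to -235 in Ccl8, and on the gene's strand at -129 to -124 in Ccr1. Of 32851 mouse promoters of this length, 22.8% held TATAA and 23.3% held GAGGAA, so either match is common; these letters were chosen after the sequences were seen. The consensus of NF-kB, the AP-1 site TGANTCA and the STAT site TTCNNNGAA, searched on both strands, were in none of the 3 windows and in 3.9%, 6.75% and 7.02% of all promoters.

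Signal is given as log2 relative to the array's own 75th percentile, so 0 is that percentile and a step of 1 is a doubling. Spots that the scanner software marked as outliers, uneven or far from their fellows, were left out of the fit but are given in the text. Differences are knockout minus control, with limma's moderated standard error (SE), and a probe was called at a 5% false discovery rate over all 35351 tested probes. The 75th percentile ran from 4910.5 to 5820.0 intensity units on the knockout arrays and from 6353 to 7110.5 on the controls, and 69.4% to 75.4% of probes were well above background. On every one of the 6 arrays all 10 probes of these genes exceeded background clearly, with processed signals of 741 to 43900 intensity units against a lowest detected signal of 116 to 122. Of their 60 spots, 11 were outliers, 5 of them on control replicate 1. The slide held the controls in its first row and the knockouts in its second, so row and genotype cannot be told apart. The Islr probe read 1.57 (outlier), 1.24 and 1.21 in the controls and -1.40, -0.93 and -1.31 in the knockouts, a difference of -2.44 (SE 0.21, adjusted p = 0.0171). This is the direction the labels give, though whether the probe lies in the deleted part is not known here.

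Ccl3 and Ccl4, the macrophage inflammatory proteins 1-alpha and 1-beta, recruit and activate monocytes, macrophages and lymphocytes. Ccl3 (probe A_51_P140710) read 0.36, -0.29 and 0.11 in control replicates 1 to 3 and -2.24, -2.35 and -2.70 in knockout replicates 1 to 3. The 3 knockouts lay close together and far below the lowest control. The means were 0.060 ± 0.32 (SD, n = 3) and -2.43 ± 0.24 (SD, n = 3), a difference of -2.49 (SE 0.22, 95% interval -3.03 to -1.96), or 5.62-fold lower, with a limma adjusted p of 0.0156.

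Ccl4 was measured by 2 probes, and both showed the same separation. The first, A_51_P509573, read -0.07, -0.62 and -0.26 in the controls and -2.49, -2.97 and -2.60 in the knockouts. Its difference of -2.37 (SE 0.21, 95% interval -2.88 to -1.86) was a 5.18-fold lower signal, at a limma adjusted p of 0.0156. The second, A_55_P2744077, read 0.64, 0.14 and 0.33 in the controls and -1.98, -2.34 and -1.95 in the knockouts. It differed by -2.46 (SE 0.20, 95% interval -2.94 to -1.99), or 5.51-fold, at a limma adjusted p of 0.0105. Neither probe had a control below any knockout.

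Among these 9 genes, Ccl3 and Ccl4 were those with a called probe. They account for 3 of the 9 tested probes (2 of 8 tested genes), where 3.97% of all tested probes were called and 2.42% were called lower. In refits without 1 array each, the second Ccl4 probe was called every time. Ccl3 and the first Ccl4 probe lost the call without control replicate 3 (differences of -2.47 and -2.34, limma adjusted p of 0.0514 and 0.0521) and without knockout replicate 3 (differences of -2.36 and -2.42, limma adjusted p of 0.0528 for both). The exact permutation test of 3 arrays against 3 cannot go below p = 0.1 (two-sided), which Ccl3 and both Ccl4 probes reached. The labels give the tissue as colon, while the design text mentions a flow separation step without saying whether cells were sorted, so which cells the RNA came from is not settled here. In RNA of many cells, fewer cells that make a transcript and less of it per cell cannot be told apart, here and for every gene that follows.

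**Figure D1:**
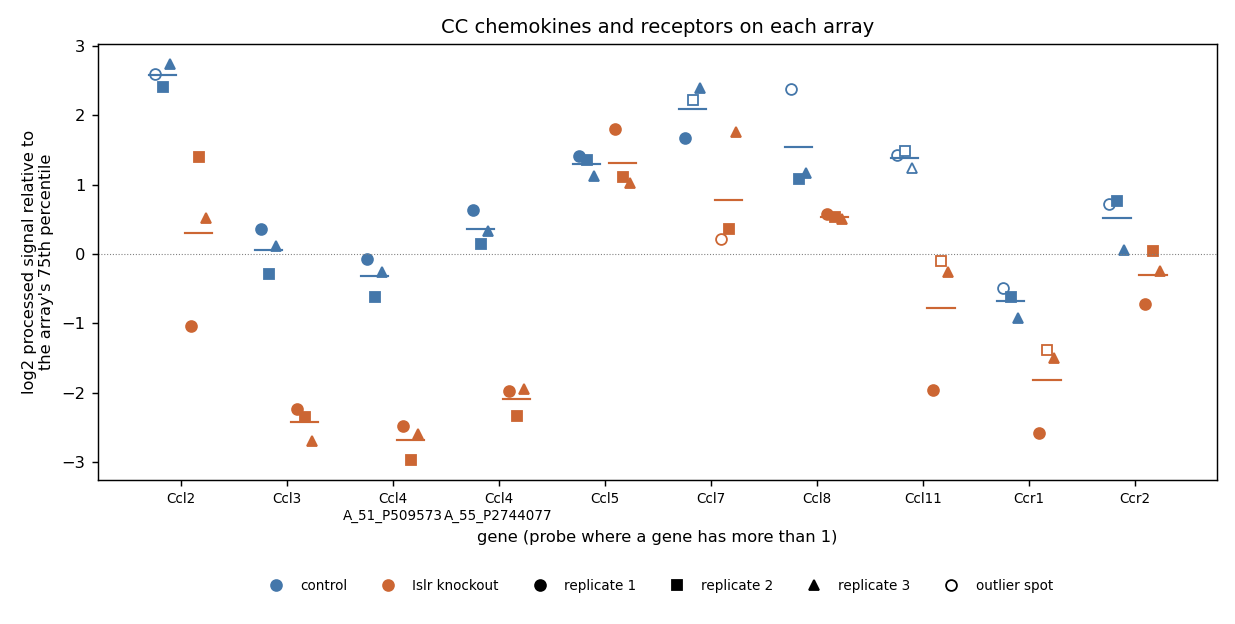
Log2 signal, with 0 at the 75th percentile of the array (vertical axis), for each probe of the 9 genes (horizontal axis), with 1 point per array, open where the spot was an outlier, and a bar at each group's mean over all 3 arrays. Control and knockout points of Ccl3 and both Ccl4 probes lie more than 1 log2 unit apart, those of Ccl5 and Ccl7 overlap, and knockout replicate 1 is far below the other knockouts for Ccl2, Ccl11 and Ccr1.

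Ccl5 (RANTES), made chiefly by T and NK cells, platelets and macrophages, did not follow Ccl3 and Ccl4. Probe A_52_P638459 read 1.42, 1.36 and 1.13 in the controls and 1.81, 1.11 and 1.02 in the knockouts. The groups overlapped, with knockout replicate 1 the highest of all 6 arrays and the other knockouts the lowest. The difference was 0.01 (SE 0.24, limma adjusted p = 0.984), and it was below 0 in 5 of 16 other settings, array weights and quantile normalization among them. Its 95% interval of -0.57 to 0.59 leaves room for a difference of that size either way.

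The gap between the Ccl3 and Ccl5 probes within each array, in which array scaling cancels, was -1.06, -1.65 and -1.02 in the controls and -4.05, -3.46 and -3.73 in the knockouts. It changed by -2.50 between the groups, without overlap (exact permutation p = 0.1, two-sided, the smallest possible). The gap between Ccl4 and Ccl5 changed by -2.47 (exact permutation p = 0.1), while that between Ccl3 and Ccl4 changed by -0.03 with overlapping groups (exact permutation p = 0.9). These pairs, and that of Ccl2 and Ccl8 with a change of -1.28 (exact permutation p = 0.2), were chosen after their values were seen.

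Ccl2 and Ccl7, the monocyte chemoattractant proteins 1 and 3, are the ligands of Ccr2. Ccl2 (A_51_P286737) read 2.60 (outlier), 2.41 and 2.75 in the controls and -1.03, 1.40 and 0.52 in the knockouts. The controls agreed closely and the knockouts spread widely, all of them below the controls. The means in the fit were 2.58 ± 0.24 (SD, n = 2) and 0.30 ± 1.23 (SD, n = 3). The difference of -2.28 (SE 0.69, 95% interval -4.00 to -0.56), 4.86-fold, was close in size to that of Ccl3, with a larger SE, and the limma adjusted p was 0.110. Without knockout replicate 1 it was -1.62 (limma adjusted p = 0.114), and with array weights -1.78 and called (limma adjusted p = 0.0373).

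Ccl7 (A_51_P436652) read 1.67, 2.23 (outlier) and 2.40 in the controls and 0.21 (outlier), 0.35 and 1.76 in the knockouts. Knockout replicate 3 lay above control replicate 1, so the groups overlapped. The difference was -0.98 (SE 0.55, n = 2 in each group, limma adjusted p = 0.330), and -1.32 with the outlier spots kept (exact permutation p = 0.2, two-sided).

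Ccl8, the monocyte chemoattractant protein 2, and Ccl11, eotaxin-1, lie in the same cluster as Ccl2 and Ccl7. Ccl8 (A_51_P464703) read 2.39 (outlier), 1.09 and 1.16 in the controls and 0.57, 0.54 and 0.51 in the knockouts. The 3 knockouts were almost the same, all below the controls, and control replicate 1 stood well above the rest. Without that outlier spot the difference was -0.58 (SE 0.16, 95% interval -0.99 to -0.18), 1.5-fold, at an unadjusted p of 0.0124 and a limma adjusted p of 0.0943. With the spot kept it was -1.01, or 2.01-fold, at a limma adjusted p of 0.127. In refits without 1 array each it was called in 0 of 4, with limma adjusted p-values of up to 0.229. It was called with array weights (-0.58, limma adjusted p = 0.0251) and with background correction by normexp and quantile normalization (-0.67, limma adjusted p = 0.0433).

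Ccl11 (A_55_P2869822) was an outlier spot on all 3 controls and on knockout replicate 2, so it was not tested. Its signal was 1.43, 1.48 and 1.24 in the controls and -1.96, -0.10 and -0.27 in the knockouts, with no overlap. With those spots kept the means were 1.39 ± 0.13 (SD, n = 3) and -0.78 ± 1.03 (SD, n = 3), a 4.48-fold lower signal in the knockouts (exact permutation p = 0.1; limma adjusted p = 0.0536 in a fit that keeps outlier spots).

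Both receptors had lower means in the knockouts, and neither passed the test. Ccr1, carried by monocytes, macrophages and neutrophils, was measured by probe A_52_P616356. It read -0.48 (outlier), -0.63 and -0.93 in the controls and -2.58, -1.38 (outlier) and -1.50 in the knockouts. All knockouts lay below all controls, knockout replicate 1 by the widest margin. The difference was -1.26 (SE 0.41, 95% interval -2.35 to -0.18, n = 2 in each group), 2.40-fold, at a limma adjusted p of 0.144. Ccr2, carried by inflammatory monocytes, read 0.72 (outlier), 0.77 and 0.06 in the controls and -0.73, 0.04 and -0.24 in the knockouts (A_51_P245989). The lowest control and the highest knockout were all but equal, and the difference of -0.73 (SE 0.33, 95% interval -1.53 to 0.083, n = 2 controls and 3 knockouts) had a limma adjusted p of 0.223.

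**Figure D2:**
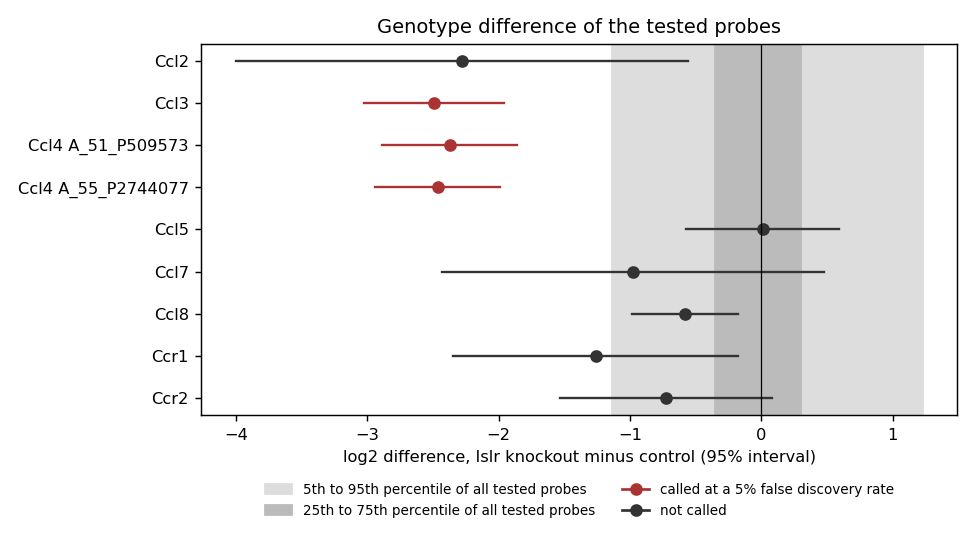
Log2 difference, knockout minus control, of the 9 tested probes, as points with 95% intervals from limma; dark and light bands hold the middle of all tested probes (25th to 75th and 5th to 95th percentile), and red marks probes called at a 5% false discovery rate. The 3 red intervals of Ccl3 and Ccl4 lie below the light band, Ccl2 has the widest interval at -4.00 to -0.56, and Ccl5 sits at 0.01.

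Taken by sign, 8 of the 9 tested probes were lower in the knockouts, against 50% of all tested probes, and the 8 tested genes had a median difference of -1.12, against 5.75e-05 over all tested probes. An unadjusted limma p under 0.05 was found for 6 probes of 5 genes, all lower, where 14.1% of all tested probes had one in that direction. With outlier spots kept, the groups did not overlap for 8 of 10 probes, all lower, where 17.6% of 40172 probes were lower without overlap. The genes were chosen with earlier results of these data known, so these shares describe the set and do not test it. Knockout replicate 1 was the lowest knockout for 5 of the 10 probes (Ccl2, Ccl7, Ccl11, Ccr1 and Ccr2), though not for Ccl3, Ccl4, Ccl5 or Ccl8; it also had the most outlier spots of any array, 16% of its spots.

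Among the other CC chemokine ligands the direction was mostly the opposite. Of 14 genes 11 were tested, 9 were higher and 2 lower in the knockouts, with a median of 0.44, and 1 passed the test. That gene, Ccl12, a further mouse ligand of Ccr2 that lies between Ccl11 and Ccl8, fell. It read -0.70, -1.32 and -1.41 in the controls and -2.79, -2.57 and -2.24 in the knockouts, and was thus below every control in every knockout. The difference was -1.39 (SE 0.25), 2.63-fold, at a limma adjusted p of 0.0420. That call held in 1 of 6 refits without an array, the one without control replicate 1 (0.0436); the others gave limma adjusted p-values of 0.0658 to 0.102, and testing dim probes too gave 0.0638.

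Ccl9 and Ccl6, which lie between Ccl5 and Ccl3, differed by -0.58 (SE 0.25, limma adjusted p = 0.196) and 0.25 (SE 0.21, limma adjusted p = 0.502). Ccl28, an epithelial chemokine of mucosal surfaces, was picked out here for its size. It read -1.34, -4.02 and -2.19 in the controls and 1.76, -0.16 and 0.64 in the knockouts, so every knockout exceeded every control. Its difference of 3.26 (SE 0.76) had a limma adjusted p of 0.0625, and its other probe differed by 1.61 (SE 0.31, limma adjusted p = 0.0529). Ccl20, which attracts Ccr6-bearing cells, differed by 1.26 (SE 0.97, limma adjusted p = 0.443), and Ccl1 was not well above background on any array.

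Of 12 other CC receptors, atypical receptors and decoys, 8 were tested, 7 were lower and 1 higher, the median was -0.44, and none was called by limma (3 at an unadjusted p under 0.05, all lower). The lowest p-values were those of the atypical receptors, which bind chemokines without signalling for migration. Ackr2, a scavenger of inflammatory CC ligands, read -0.35, -0.09 and -0.34 in the controls and -1.60, -1.18 and -0.98 in the knockouts. The groups were clearly apart, and the difference of -0.99 (SE 0.20) had a limma adjusted p of 0.0512. Ackr1, which binds chemokines on venular endothelium, differed by -1.31 (SE 0.32, limma adjusted p = 0.0668). Ccr3, the receptor of Ccl11, and Ccr4 were not well above background on any array.

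Below the receptors, 20 of 21 signalling and desensitisation genes were tested, with 16 lower, 4 higher and a median of -0.30. The gene called was Rgs16, which switches off the G protein that chemokine receptors use. It read 0.50, 0.94 and 0.96 in the controls and -1.11, -0.91 and -1.45 in the knockouts, with no overlap, and fell by 1.95 on the log2 scale (SE 0.22, 3.88-fold, limma adjusted p = 0.0200). It kept the call without control replicate 1 (0.0182) or knockout replicate 2 (0.0274), and missed it narrowly without each of the others, at limma adjusted p-values of 0.0502 to 0.0641. The inhibitory G protein subunit Gnai2 differed by -0.12 (SE 0.20) and the kinase Grk2, which desensitises the receptors, by -0.04 (SE 0.15). Taking each gene by its probe of highest mean, 2 genes of the list had an unadjusted limma p under 0.05, Rgs16 and Arrb2, both lower. Arrb2, picked out for its size, differed by -0.81 (SE 0.22, limma adjusted p = 0.0821) on that probe. Its other probes differed by -1.03 and -1.15 (limma adjusted p = 0.0583 and 0.0554).

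Of 27 cytokines, sensors and transcription factors that induce or restrain inflammatory chemokine genes, 24 were tested, with 17 lower, 7 higher, a median of -0.25 and none called by limma (6 at an unadjusted p under 0.05, of which 5 were lower). Taking each gene by its probe of highest mean, the lowest p-values in the list were those of Il10, which restrains macrophages, at -2.06 (SE 0.48, limma adjusted p = 0.0634), and Csf2, which activates them, at -2.75 (SE 0.66, limma adjusted p = 0.0657). Both were dim, well above background on 1 of 3 knockout arrays. Singled out for their size, Il6 differed by -4.05 (SE 0.99, limma adjusted p = 0.0671) on that probe and by -5.47 (SE 1.07, limma adjusted p = 0.0534) on its other one, and Il1a by -3.09 (SE 0.83, limma adjusted p = 0.0799), every one of these probes well above background on 2 of 3 knockout arrays. Tnf, a classical inducer of these chemokines, differed by 0.14 (SE 0.39) and Ifng by 0.39 (SE 0.29). Of the NF-kB subunits, Nfkb1 differed by -0.25 (SE 0.18). Rela differed by 0.01 (SE 0.14) on its probe of highest mean and by -0.63 (SE 0.27) on its other one. Relb likewise differed by -0.04 (SE 0.14) and -0.23 (SE 0.14). Nfkb2 differed by -0.53 (SE 0.19) and -0.48 (SE 0.17), at limma unadjusted p of 0.0346 and 0.0254, with neither probe called.

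**Figure D3:**
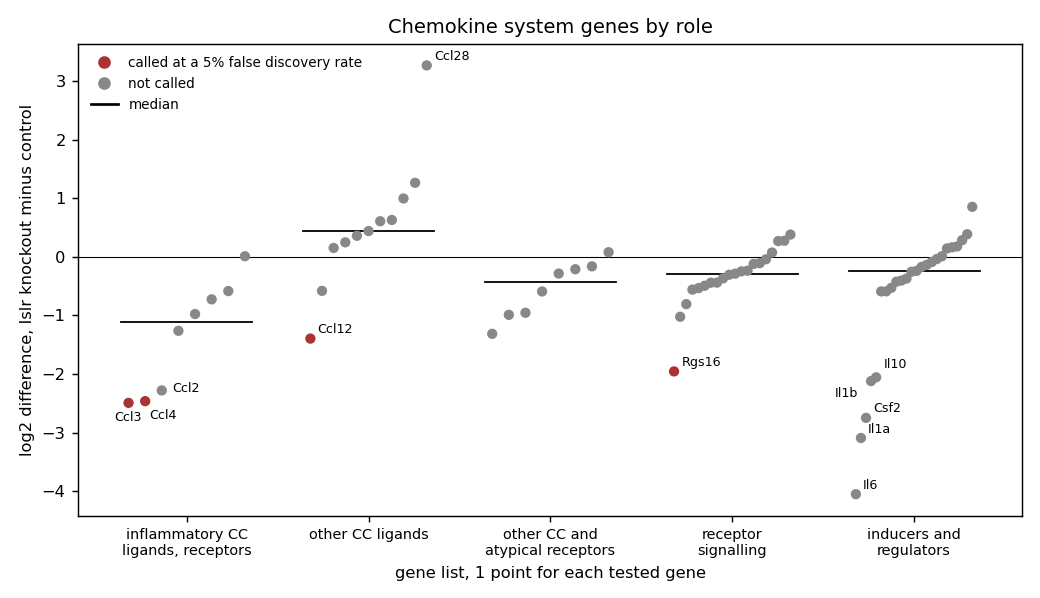
Log2 difference, knockout minus control (vertical axis), of every tested gene by role (horizontal axis), with 1 point per gene, red where called at a 5% false discovery rate, and a bar at the median of each list. The 8 tested inflammatory ligands and receptors have the lowest median, -1.12, while the other CC ligands lie mostly above 0, at a median of 0.44; Ccl12 and Rgs16 are the called genes outside that list.

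Markers of the cell types that the samples could hold were read on the same arrays, and the summed signals overlapped between the genotypes for some lists and not for others. Summed signals below count each gene's brightest probe, in units of the array's 75th percentile. Of 12 neutrophil genes 9 were tested and 8 called, with S100a8, S100a9, Cxcr2, Retnlg, Mmp8, Mmp9 and Camp lower, Ltf higher and a median of -2.86; their summed signal was 25 to 26.6 in the controls and 17.8 to 20 in the knockouts, and Ngp was not above background on any array. Leaving out control replicate 2 took the number called to 0, leaving out knockout replicate 1 took it to 5, and it was 1 if either control replicate 3 or knockout replicate 3 was dropped. Part of this is loss of a test: S100a8 and Retnlg could not be tested without control replicate 2 or 3, nor Ltf without knockout replicate 2 or 3. The called probes of Mmp8 and Mmp9 were well above background on 2 of 3 knockout arrays. Of 16 monocyte and macrophage genes 13 were tested, 10 lower and 3 higher, with a median of -0.75 and none called by limma (8 at an unadjusted p under 0.05, of which 7 were lower); sums were 42.7 to 56.5 and 38.3 to 44.1, which overlap. By the probe of highest mean, the lowest p-values there were those of Fcgr1, an antibody receptor, at -1.84 (limma adjusted p = 0.0567) and C1qb, a complement subunit, at -0.91 (limma adjusted p = 0.0975). Outside the naming rule, Cd68, a lysosomal protein of macrophages, differed by -0.88 on its brighter probe and -1.37 on its other one (limma adjusted p = 0.0983 and 0.0859). The fractalkine receptor Cx3cr1 likewise differed by -0.78 and -1.11 (limma adjusted p = 0.116 and 0.0869). The 3 higher genes, named for their direction, were Ly6c2 at 0.49 (limma unadjusted p = 0.0295, adjusted p = 0.141), Itgam at 0.27 and Cd14 at 0.16, each by its probe of highest mean.

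Of 15 T and NK cell genes, which mark known makers of Ccl5, 14 were tested, 8 lower and 6 higher, with a median of -0.16 and 0 called by limma, also 0 at an unadjusted p under 0.05; sums were 11 to 16.2 and 10.6 to 14. Fibroblast genes, 10 on the array and 9 tested, were all lower (median -0.63, Pdgfrb called, 6 at a limma unadjusted p under 0.05), with sums of 49.9 to 56.2 and 28.3 to 39.7. Endothelial genes, 9 on the array and 8 tested, were likewise lower (median -1.03, Erg called, 6 at a limma unadjusted p under 0.05), with sums of 7.79 to 9.49 and 3.05 to 5.54. Of all tested probes, 14.1% were lower at a limma unadjusted p under 0.05. The Erg probe was well above background on all 3 control arrays and on 0 knockout arrays, so only its control signal let it be tested. With probes required to be well above background on all 6 arrays, 0 endothelial genes were called. The 8 tested of 10 colon epithelium genes (median 1.00) and the 7 tested of 8 smooth muscle genes (median 0.36) were all higher and none was called by limma (2 in each list at an unadjusted p under 0.05), with sums of 23.4 to 64.4 and 74.9 to 98.4 for epithelium and 50.6 to 62.9 and 68.5 to 80.3 for muscle. Every gene of both lists was well above background on at least 1 array.

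For eosinophils, which answer Ccl11, 7 of 8 genes were tested, 2 lower and 5 higher, with a median of 0.28 and Prg2 called lower; sums were 1.34 to 1.9 and 1.2 to 3.51. For mast cells 5 of 9 genes were tested, 3 lower and 2 higher (median -0.36, Hdc called lower), with sums of 2.11 to 3.16 and 1.62 to 2.25. The 2 higher genes, named for their direction, were Tpsb2 at 0.80 (limma unadjusted p = 0.0122, adjusted p = 0.0933) and Cma1 at 0.19. All 7 tested of 8 B and plasma cell genes were lower (median -0.88, Tnfrsf17 called), with sums of 14.9 to 26.7 and 10.9 to 19.4. Dendritic cell genes (6 of 8 tested, median -0.17, none called by limma, 1 at an unadjusted p under 0.05) summed to 6.15 to 9.59 and 6.8 to 8.03, and red blood cell genes (2 of 4 tested, median -0.92, none called by limma, both at an unadjusted p under 0.05) to 3 to 7.6 and 1.89 to 2.73. In refits without 1 array each, Pdgfrb was called in 0 of 6 (limma adjusted p of 0.0504 to 0.111), Erg in 2 of 6, Prg2 in 2 of 6, Tnfrsf17 in 1 of 6 and the brighter Hdc probe in 1 of 4, so every array ended at least 1 of these calls when left out. The part of any of these cell types in the chemokine differences was not tested.

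**Figure D4:**
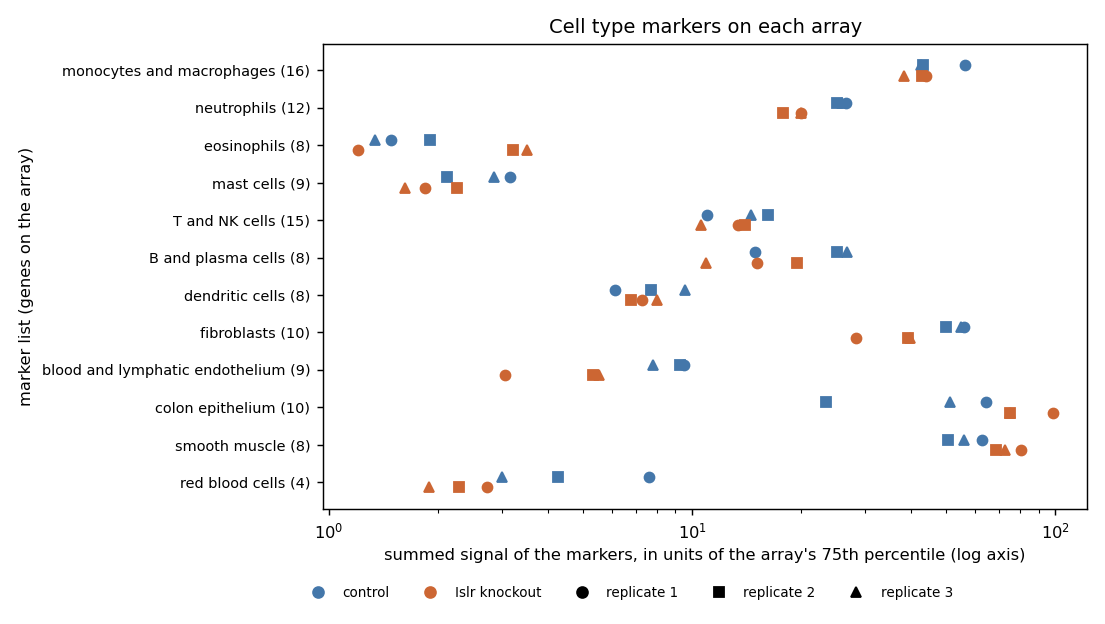
Summed signal of each cell type's marker genes in units of the array's 75th percentile (horizontal log axis), by list (vertical axis, with the number of genes on the array), with 1 point per array coloured by genotype and shaped by replicate. Control and knockout points do not overlap for neutrophils, fibroblasts, endothelium, epithelium, smooth muscle and red blood cells, and they overlap for monocytes and macrophages and for T and NK cells.

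The 5 genes whose signal most resembled the mean profile of Ccl3, Ccl4 and Ccl5, the genes usable on all 6 arrays, were 1700001L05Rik (r = 0.9987 over 6 arrays), Ergic1 (0.9954), Hsdl1 (0.9945), Prxl2b (0.9936) and Trim32 (0.9918), out of 13677. None of the 5 was called by limma, with adjusted p-values of 0.0725 to 0.518. With all 9 genes in the profile and outlier spots kept, the nearest were Scarb1 (0.9993), Trpv4 (0.9992), Serpina3j (0.9982), B3gnt9 (0.9970) and Slc4a1 (0.9969), out of 17856. No gene is in both groups of 5, and with 6 arrays in 2 groups such values are a description only.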

How the data were processed

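Per the labels' protocols, linear amplification of total RNA gave dye-labelled cDNA for 1-colour arrays. Deposited values are intensities, the processed signal of Agilent Feature Extraction (11.5.1.1 per the file headers, 10.7 per the submitters' processing notes), background-subtracted and unscaled between arrays. The labels name Cy3 and a green column; the files hold the red channel, which was used. Each of 62976 spots was put on the log2 scale from the deposited intensity, minus the array's 75th percentile over non-control spots; outlier spots were missing and spots of a probe averaged. Probes were tested (limma 3.58.1, R 4.3.3; lmFit and eBayes; Benjamini-Hochberg) if well above background on all 3 arrays of a group with at least 2 usable values in each: 35351 of 56605, of which 1403 were called. RefSeq accessions in GRCm38.p6 named 33767 probes. The number of arrays limits precision. The steps were tested on simulated data.

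The 9 genes and all lists were chosen with earlier results of these data known. Named from lists were genes with a called probe, else the 2 of lowest p; a gene's tested probe of highest mean stood for it in that choice, counts and medians. Genes outside this rule are said to be so, or were named for their role (Ccl9, Ccl6, Ccl20, Gnai2, Grk2, Tnf, Ifng, Nfkb1, Nfkb2, Rela and Relb). Alternatives were other scalings, normexp (offset 50, on median signals, since the files hold no mean ones), dim-probe filters, outlier spots kept, array weights, robust eBayes with trend, the series' value table and leaving out each array. Slide row as a block could not be fitted, as it coincides with genotype. Results for some list members are not reported here.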

Additional observations from a re-analysis of the deposited data

How the results depend on the processing

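Every tested probe of the 9 genes other than Ccl5 kept its direction in every setting that could test it. Over all pairs of a probe and a setting, 118 kept direction and side of the threshold, 3 passed it where the reported value did not (Ccl2 once, Ccl8 in 2 settings), 4 lost it (Ccl3 and the first Ccl4 probe, each in 2 settings) and 5 changed sign, all of Ccl5. The number of called probes of these genes, 3, became 5 with array weights (Ccl2 and Ccl8 added) and 4 with normexp and quantile normalization (Ccl8 added). It ranged from 1 to 3 when 1 array was left out, with 1 left without control replicate 3 or knockout replicate 3. Over all probes, 1403 calls became 2249 with median centring, 2185 with quantile normalization, 2558 with normexp and the 75th percentile, 2773 with normexp and quantile normalization, 8119 with array weights and 484 with no filter on dim probes, and ranged from 40 (without knockout replicate 3) to 2114 (without control replicate 1). The share of calls that were lower, 60.9%, was 48.9% with normexp and the 75th percentile and 49.3% with array weights, and ranged from 44.9% (without control replicate 1) to 90% (without knockout replicate 3) when 1 array was left out. Over the 10 settings with all arrays, genes with a called probe ranged from 0 to 3 among the other CC ligands, 0 to 2 among the other receptors, 1 to 2 in receptor signalling, 0 to 6 among inducers, 0 to 5 among monocyte and macrophage genes and 6 to 8 among neutrophil genes. The cause was not tested. No paired analysis was possible because the labels give no replicate numbers that tie a control to a knockout. Signal over background did not limit these 9 genes. Outlier spots did, leaving Ccl7 and Ccr1 with 2 arrays in each group, Ccl2, Ccl8 and Ccr2 with 2 control arrays, and Ccl11 untested.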
